A study of Homo sapiens with 4 samples.

Results

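The INK4 and CIP cyclin-dependent kinase (CDK) inhibitors were followed in RNA-seq gene counts of HAP1 cells, a human cell line that is nearly haploid. The 6 genes were chosen by family, not by their values, out of 57820 genes counted, though earlier results of these data were known. They were CDKN2A, CDKN2B, CDKN2C and CDKN2D of the INK4 family, and CDKN1A and CDKN1B of the CIP family. All 6 passed the filter on low counts, as did 15136 genes in all. The study compared 2 libraries from cells that lack RING1A and RING1B, the catalytic subunits of Polycomb Repressive Complex 1 (dKO 1 and dKO 2), with 2 libraries from cells that lack BAP1 in addition (tKO 1 and tKO 2). Both genotypes were untreated and share the loss of RING1A and RING1B, and this complex is the one known to place ubiquitin on lysine 119 of H2A, the mark that BAP1 removes. RING1A and BAP1 had been inactivated by a STOP cassette in picked clones, and RING1B in purchased knockout cells. Whether the libraries of a genotype came from separate clones is not given in the sources used here. Wild-type cells were not analysed here, so the levels below are those of cells already without this complex.

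INK4 proteins bind CDK4 and CDK6 and keep them from the D-type cyclins, which leaves the retinoblastoma protein RB1 bound to E2F factors and holds cells before S phase. CIP proteins bind assembled cyclin-CDK complexes, above all those of CDK2. CDKN2A encodes p16INK4A and, from an upstream first exon and another reading frame, p14ARF, which is not a CDK inhibitor. CDKN2A and CDKN2B, which encodes p15INK4B, are neighbours on chromosome 9 and a classical target of Polycomb silencing in dividing cells. The long noncoding RNA CDKN2B-AS1, also called ANRIL, is transcribed from the opposite strand, starting within the upstream end of CDKN2A and running across CDKN2B.

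The promoter sequences of this locus are shown because its 2 genes lie side by side at different levels, and because Polycomb complexes bind stretches rich in CG dinucleotides. Each is the 250 bases before a transcript start in RefSeq (GRCh38.p14), which matched GRCh37 at a single place. Capitals mark CG dinucleotides, and all 3 read along the minus strand. The outer CDKN2A start (GRCh37 chr9:21995324-21995573) is that of the transcripts with the upstream first exon. The inner CDKN2A start is at chr9:21974857-21975106 and the CDKN2B start at chr9:22009305-22009554.
CDKN2A, outer start: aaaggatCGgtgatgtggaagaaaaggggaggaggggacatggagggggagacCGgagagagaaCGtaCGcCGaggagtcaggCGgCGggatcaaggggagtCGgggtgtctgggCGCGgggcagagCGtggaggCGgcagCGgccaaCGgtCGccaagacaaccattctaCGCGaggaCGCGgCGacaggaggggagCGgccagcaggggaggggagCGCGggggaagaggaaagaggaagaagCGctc
CDKN2A, inner start: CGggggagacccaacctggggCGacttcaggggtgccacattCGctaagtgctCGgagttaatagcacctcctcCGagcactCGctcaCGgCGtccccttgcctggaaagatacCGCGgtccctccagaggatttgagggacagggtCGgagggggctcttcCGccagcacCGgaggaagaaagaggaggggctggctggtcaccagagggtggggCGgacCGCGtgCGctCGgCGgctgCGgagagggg
CDKN2B: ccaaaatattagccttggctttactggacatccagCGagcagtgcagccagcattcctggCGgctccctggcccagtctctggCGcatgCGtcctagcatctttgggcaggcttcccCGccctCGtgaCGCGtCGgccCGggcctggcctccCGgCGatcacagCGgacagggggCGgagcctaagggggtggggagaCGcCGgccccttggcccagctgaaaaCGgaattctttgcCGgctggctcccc
These windows held 24, 20 and 18 CG dinucleotides, against a median of 11 in 35116 RefSeq windows of this length. Over all 9 windows of the 6 genes the number ran from 7 to 35, and 7 windows were above that median. The highest, 35, was at the second of 3 starts of CDKN2C, while its first start had 7. The GC box GGGCGG, searched on both strands, was found in 7 of the 9 windows and in 42.6% of all windows. The outer CDKN2A start held no GC box, the inner start held 1 and CDKN2B held 2. Neither TATAAA, present in 10.7% of all windows, nor the E2F forms TTTCCCGC, TTTCGCGC, TTTGCCGC and TTTGGCGC, present in 2.79%, occurred in any of the 9. These matches describe letters only and say nothing of which factors bind.

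Libraries held between 16054590 and 18455410 gene counts, with both tKO libraries below both dKO libraries. Levels are given as CPM, the counts of a gene scaled to a common library size after TMM normalisation, and the floor of 3 counts lay between 0.164 and 0.186 CPM. BAP1 itself fell in tKO, with 2046 and 2010 counts in dKO against 158 and 107 in tKO (log2 fold change -3.77, limma adjusted p = 0.0065). RING1, the gene of RING1A, had between 12 and 17 counts in every library. RNF2, the gene of RING1B, was still transcribed at 77.5 and 86.1 CPM in dKO and 77.8 and 68.2 CPM in tKO, so its transcript level is no check of that knockout. HAP1 has no single defining marker. VIM and the fusion partners BCR and ABL1 were transcribed in all 4 libraries. The blood genes SPI1 and HBG1 had 0 counts in all 4 libraries, which does not exclude a level below the floor of 3 counts. Of the other blood genes checked, PTPRC had 1 count in tKO 2 only, CD34 at most 3 counts per library, and CD33 up to 5, in tKO 2. The tKO libraries differed from each other in VIM, at 266 CPM in tKO 1 and 487 CPM in tKO 2, and in ABL1, at 22.2 and 63.0 CPM. The unit of replication is the library, described by the study as an independent biological replicate. The limma p-values rest on the spread between these 4 libraries, with each gene's variance drawn toward that of other tested genes of like level.

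All 6 inhibitors were transcribed, at levels far apart per length of exon. On the scale of CPM per kb of annotated exon CDKN2C stood highest with a mean of 22.96 over the 4 libraries, followed by CDKN2A with a mean of 12.0 and CDKN1B with a mean of 9.35. CDKN1A and CDKN2D lay together with means of 2.83 and 2.82, and CDKN2B was lowest with a mean of 0.566. Of the 5 pairs of neighbours in this order, only CDKN1A and CDKN2D had ranges over the libraries that overlapped, from 2.31 to 3.30 and from 2.28 to 3.19. With the length of the canonical transcript in place of all annotated exon, a choice made after the data had been seen, the order was the same, but the values of the upper 3 were 69.6, 47.7 and 35.9 CPM per kb. Levels between genes therefore depend on the length assumed, and the comparisons between genotypes do not.

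**Figure D1:**
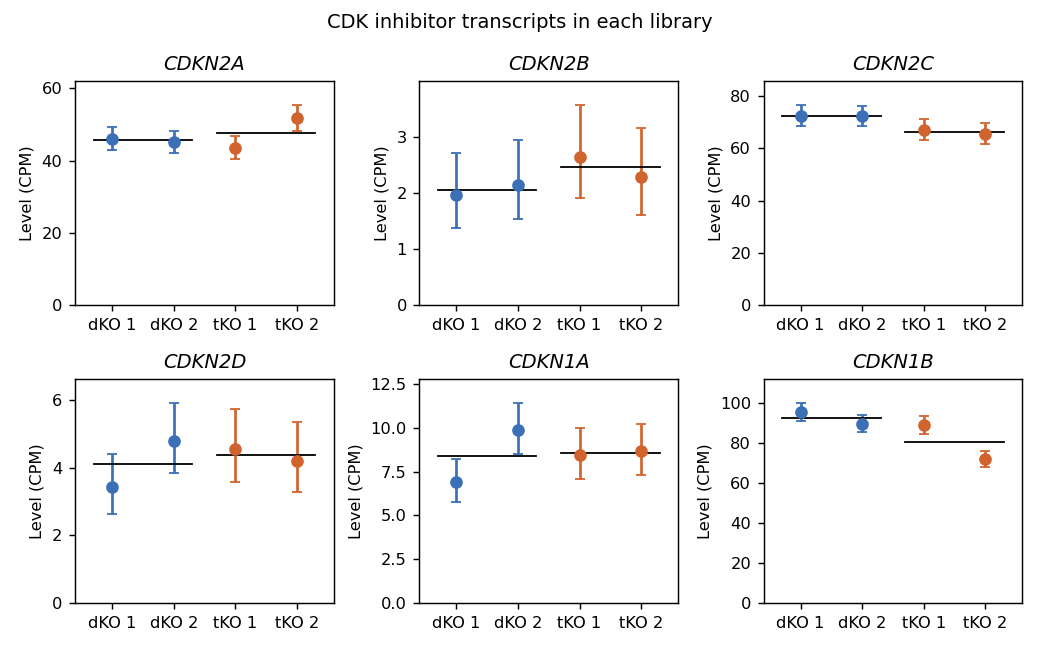
Level in CPM (vertical axis, from 0) of the 6 CDK inhibitor genes in libraries dKO 1, dKO 2, tKO 1 and tKO 2 (horizontal axis); points are libraries, bars their exact Poisson 95% intervals for counting error, and black lines the group means. CDKN2B, CDKN2C and CDKN1B have groups that do not overlap, while in CDKN2A the tKO libraries lie on either side of dKO.

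CDKN2A (ENSG00000147889.12, GRCh37 chromosome 9, 21967751 to 21995300, minus strand) was read 845 and 817 times in dKO and 707 and 836 times in tKO. These counts correspond to 46.1 and 45.1 CPM in dKO, 43.6 CPM in tKO 1 and 51.7 CPM in tKO 2. The tKO libraries were thus the lowest and the highest of the 4, and their Poisson intervals, 40.4 to 46.9 and 48.3 to 55.4 CPM, did not overlap. Group means were 45.6 ± 0.741 CPM for dKO and 47.7 ± 5.79 CPM for tKO (SD over n = 2 libraries each, as for the other genes). The log2 fold change of 0.06 (95% interval -0.25 to 0.37) was smaller than its standard error of 0.13, and its sign was negative, at -0.065, without tKO 2. Gene counts add the transcripts from both starts, so p16INK4A and p14ARF could not be told apart.

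CDKN2B (ENSG00000147883.9, chromosome 9, 22002902 to 22009304, minus strand) was near the lower end of the tested genes, of which 16.8% had a lower mean CPM. It had 36 and 39 counts in dKO and 43 and 37 in tKO, which is 1.96 and 2.15 CPM in dKO and 2.65 and 2.29 CPM in tKO. Both tKO values lay above both dKO values, yet the Poisson intervals of all 4 libraries overlapped, the lowest reaching 2.72 CPM and the highest starting at 1.92 CPM. Group means were 2.06 ± 0.132 CPM for dKO and 2.47 ± 0.254 CPM for tKO, and the log2 fold change was 0.25 (95% interval -0.42 to 0.92).

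Strand mattered for CDKN2B more than for the other 5 genes. Over its exons, 25 and 23 reads in dKO and 15 and 28 in tKO came from the strand opposite to the gene, which is the strand of CDKN2B-AS1, although no annotated exon of that RNA overlaps one of CDKN2B. They made up 41.0% and 37.1% of the reads there in the dKO libraries, and 25.9% and 43.1% in tKO 1 and tKO 2. Counted without strand, the mean level of CDKN2B was 3.65 CPM in place of 2.26. Opposite reads were 4.09% of the total at CDKN2C, where an lncRNA of a later annotation release overlaps the gene, and 1.45% at CDKN2A. At CDKN2D, CDKN1A and CDKN1B they were at most 0.171%. CDKN2B-AS1 had 35 and 56 counts in dKO and 48 and 62 in tKO, with overlapping groups and a log2 fold change of 0.45 (95% interval -0.34 to 1.24, limma adjusted p = 0.996).

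Within each library CDKN2A exceeded CDKN2B per kb of exon by a factor of 24.2 and 21.6 for the dKO libraries, 16.9 for tKO 1 and 23.3 for tKO 2. The factor depends on the length assumed, and per kb of canonical transcript the mean levels lay further apart, at 47.7 and 0.588 CPM. Of the 56 counted genes that lie within 1 Mb of CDKN2A, 7 were tested, CDKN2A, CDKN2B and CDKN2B-AS1 among them, and 44 had at most 3 counts in every library. The 28 interferon genes and pseudogenes of the cluster were among the quiet ones except IFNE, which reached 12 counts. MTAP, an enzyme of methionine salvage, was at 97.2 and 105.8 CPM in dKO and 99.5 and 96.7 CPM in tKO (log2 fold change -0.05, limma adjusted p = 0.996). KLHL9, an adaptor of a ubiquitin ligase, had a log2 fold change of -0.01. DMRTA1, a DM-domain factor on the far side of CDKN2B, was higher in both tKO libraries, with 153 and 163 counts in dKO and 197 and 171 in tKO (log2 fold change 0.38, 95% interval -0.07 to 0.83, limma adjusted p = 0.996). The retroviral pseudogene ERVFRD-3 was counted 9 times in both tKO libraries against 4 and 2 times in dKO, so the groups did not overlap (log2 fold change 1.29, 95% interval 0.20 to 2.38, limma unadjusted p = 0.027, adjusted p = 0.996). It lies within the span of MTAP on the same strand, and whether its few reads came from MTAP transcripts was not tested. Of all tested genes, 15.8% were higher in tKO with groups that did not overlap. The locus therefore held 3 well transcribed genes, KLHL9, MTAP and CDKN2A, beside weak ones, and no gene there passed the test after adjustment.

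**Figure D2:**
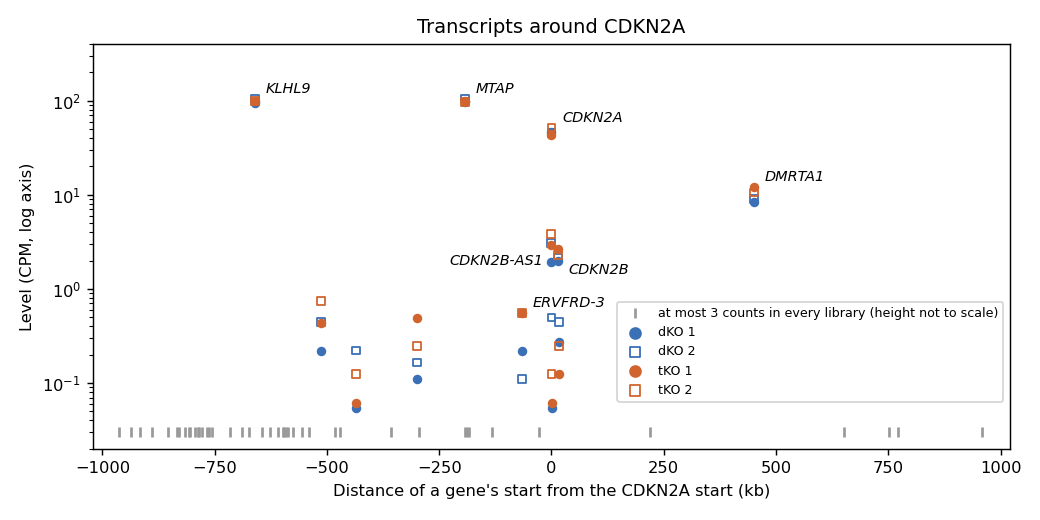
Level in CPM (log axis) of counted genes within 1 Mb of CDKN2A against the distance of their start from the CDKN2A start in kb; points are the 4 libraries, names are given for tested genes, and grey ticks mark genes with at most 3 counts in every library, drawn at an arbitrary height. KLHL9, MTAP and CDKN2A stand above the rest, and CDKN2B lies beside CDKN2B-AS1 at a few CPM.

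CDKN2C (ENSG00000123080.6, chromosome 1, 51426417 to 51440306, plus strand), which encodes p18INK4C, was the steadiest member. It had 1328 and 1308 counts in dKO and 1089 and 1058 in tKO, or 72.5 and 72.1 CPM in dKO and 67.1 and 65.5 CPM in tKO. Both tKO libraries were below both dKO libraries. Group means were 72.3 ± 0.228 CPM for dKO and 66.3 ± 1.14 CPM for tKO, which is 91.7% of dKO. The log2 fold change was -0.13 (95% interval -0.36 to 0.11) with a standard error of 0.10. The dKO libraries were closer to each other than in 97.5% of the genes compared, so the lack of overlap between groups here rests on a narrow spread.

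CDKN2D (ENSG00000129355.6, chromosome 19, 10677136 to 10679735, minus strand), which encodes p19INK4D, had 63 and 87 counts in dKO and 74 and 68 in tKO. Its level was 3.44 and 4.80 CPM in dKO and 4.56 and 4.21 CPM in tKO, so both tKO values lay between the dKO values. Group means were 4.12 ± 0.962 CPM for dKO and 4.38 ± 0.248 CPM for tKO. The log2 fold change was 0.11 (95% interval -0.53 to 0.74), and -0.13 without dKO 1.

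CDKN1A (ENSG00000124762.9, chromosome 6, 36644237 to 36655114, plus strand) encodes p21, an inhibitor of CDK2 complexes. It had 127 and 179 counts in dKO and 137 and 140 in tKO, or 6.93 and 9.87 CPM in dKO and 8.44 and 8.67 CPM in tKO. Here the dKO libraries differed from each other, with Poisson intervals of 5.78 to 8.25 and 8.48 to 11.4 CPM, and the tKO libraries lay between them. Means of 8.40 ± 2.08 CPM for dKO and 8.55 ± 0.158 CPM for tKO differed by less than the SD of 2.08 CPM in dKO. Of all genes compared, 9.90% had dKO libraries further apart than CDKN1A. The log2 fold change was 0.05 (95% interval -0.51 to 0.60), and -0.21 without dKO 1.

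CDKN1B (ENSG00000111276.6, chromosome 12, 12838432 to 12875303, plus strand) encodes p27, whose amount is known to be set largely by protein turnover. It had 1751 and 1627 counts in dKO and 1445 and 1162 in tKO, or 95.5 and 89.7 CPM in dKO, 89.0 CPM in tKO 1 and 71.9 CPM in tKO 2. The groups did not overlap, but tKO 1 was within 1 CPM of dKO 2 while tKO 2 stood apart, its Poisson interval ending at 76.2 CPM. The dKO mean was 92.6 ± 4.11 CPM and the tKO mean 80.5 ± 12.1 CPM. The log2 fold change was -0.21 (95% interval -0.52 to 0.10) with a standard error of 0.13. Without tKO 1 it was -0.36 (limma adjusted p = 0.032), a fit in which the lone tKO library is assumed to vary like dKO and 480 genes were called, and without tKO 2 it was -0.06 (limma adjusted p = 0.955). The value for this gene thus turned on a single library.

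Compared over all tested genes, the question was whether loss of BAP1 changes these transcripts in cells without the catalytic subunits of Polycomb Repressive Complex 1. None of the 6 was differentially expressed (DE), defined as a limma adjusted p-value below 0.05 with an absolute log2 fold change above 1. Over all genes 2 were DE, or 0.0132%. The adjusted p-value was 0.996 for each of the 6, and 0 of 6 had an unadjusted p-value below 0.05, against 3.55% of all tested genes. By edgeR 0 of 6 were DE, against 0.00661% of all tested genes, and by DESeq2 0 of 6, against 0.165%. The log2 fold changes ran from -0.21 in CDKN1B to 0.25 in CDKN2B, with a median of 0.05 beside -0.00137 for all genes, 4 being positive and 2 negative. All 6 intervals lay between -0.53 and 0.92, inside the limits of -1 and 1. As a ratio of tKO to dKO, the interval ran from 0.841 to 1.29 in CDKN2A, from 0.777 to 1.08 in CDKN2C and from 0.697 to 1.07 in CDKN1B. It was wider in the genes with fewer counts, from 0.745 to 1.89 in CDKN2B, from 0.693 to 1.67 in CDKN2D and from 0.702 to 1.52 in CDKN1A. Groups did not overlap in 3 of 6, of which CDKN2B was higher and CDKN2C and CDKN1B were lower in tKO, while this held for 31.7% of all genes, 15.8% higher and 15.9% lower.

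**Figure D3:**
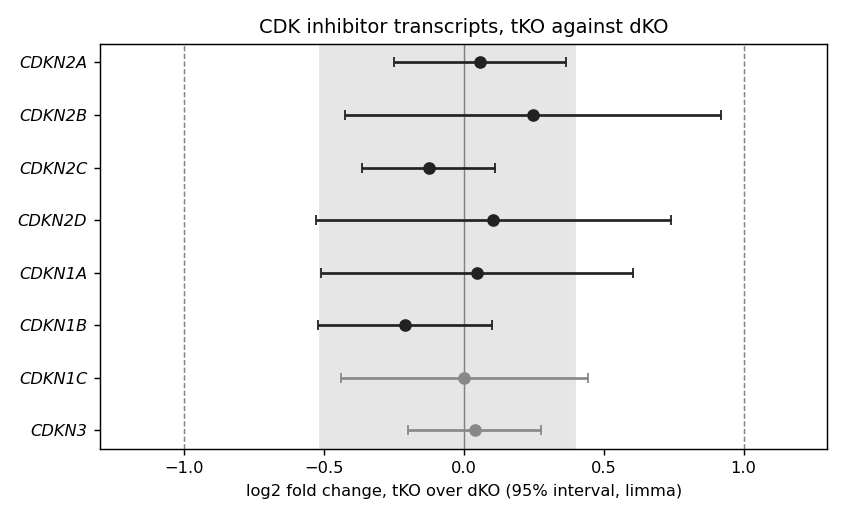
Log2 fold change of tKO over dKO from limma (horizontal axis) for the 6 CDK inhibitor genes (black) and for CDKN1C and CDKN3 (grey); points are estimates, bars their 95% intervals, grey shading the range that holds the middle of all tested genes (5th to 95th percentile, -0.51 to 0.40), and dashed lines the limits of 1 in size. All intervals cross 0 and none reaches a dashed line.

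Summed over the 4 INK4 genes, the libraries held 124.0 and 124.2 CPM in dKO and 117.9 and 123.7 CPM in tKO. Summed over CDKN1A and CDKN1B, they held 102.5 and 99.6 CPM in dKO and 97.5 and 80.6 CPM in tKO, which follows CDKN1B. CDKN1C, the third gene of the CIP family and an imprinted one, was not among the 6 but was transcribed at 9.28 and 10.5 CPM in dKO and 10.0 and 9.72 CPM in tKO, with a log2 fold change of 0.00 (95% interval -0.44 to 0.44). CDKN3, a phosphatase that acts on CDK proteins and shares only the symbol, had a log2 fold change of 0.04. None of these 8 genes lies in a reduced window of 10 Mb, though a shorter reduced stretch could be missed this way. In windows of 10 Mb the median log2 ratio to dKO was below -0.5 in 4 of 269 windows in tKO 1 and in 7 in tKO 2. For the windows of the 6 inhibitor genes it ran from -0.08 to 0.09 over both libraries.

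Genes that act with the inhibitors were described by 6 lists with 69 genes in all, of which 68 were tested. By limma none passed the adjusted p-value (smallest 0.911), and none did by edgeR or DESeq2. An unadjusted p-value below 0.05 was seen in CCND2 and BMI1, or 2.94% of those tested, against 3.55% of all tested genes. With 1 library left out the count changed to 11 of 68 without tKO 1, where 17.98% of all genes had such a p-value, and to 9 of 68 without tKO 2, where 10.6% had. CCND2 was among them in every alternative, whereas BMI1 was not without a trend, with no filter or without either dKO library. The median log2 fold change was -0.03, beside -0.00137 for all tested genes, with 25 genes positive and 43 negative.

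Among the D-type cyclins and their kinases, the partners that INK4 proteins contest, CCND2 had the lowest value. It had 871 and 899 counts in dKO and 501 and 566 in tKO, so both tKO libraries were well below dKO. Its log2 fold change of -0.56 (95% interval -0.86 to -0.26) carried an unadjusted p of 0.0033 and an adjusted p of 0.911 in limma. CDK6, CDK4 and CCND3 had log2 fold changes of 0.02, 0.01 and -0.01, and the median of the 5 genes was -0.01. CCND1 was at 49.4 and 51.4 CPM in dKO, 36.8 CPM in tKO 1 and 56.5 CPM in tKO 2. Its tKO libraries thus lay on either side of dKO, and its log2 fold change was -0.14.

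Among CDK2, CDK1 and their cyclins, the 8 genes ran from -0.12 in CCNA1 to 0.14 in CCNB1, with a median of -0.03. The 13 pocket protein and E2F genes ran from -0.29 in TFDP2 to 0.18 in E2F4, with a median of -0.01, and RB1 was at -0.06. TFDP2 had a log2 ratio to dKO of 0.04 in tKO 1 and -0.62 in tKO 2, so its value rested on tKO 2. For E2F4 the ratios were 0.18 in tKO 1 and 0.17 in tKO 2. Of 22 E2F-responsive S phase genes 21 were tested, UHRF1 having no matched identifier, and their median was -0.03. RRM2, a subunit of ribonucleotide reductase, had the highest value at 0.25. MCM10, a replication initiation factor, had the lowest at -0.48. It was at 137.5 and 130.2 CPM in dKO, 71.2 CPM in tKO 1 and 129.4 CPM in tKO 2. Its log2 ratio to dKO was -0.91 in tKO 1 and -0.05 in tKO 2, so the value rested on tKO 1. MCM10 lies in a reduced window of tKO 1 on chromosome 10, and CDC25A, at -0.44, in a reduced window of tKO 2 on chromosome 3. The log2 ratio of CDC25A to dKO was 0.03 in tKO 1 and -0.91 in tKO 2.

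Genes for the turnover of CIP proteins ran from -0.34 in RNF123, which lies in a reduced window of tKO 2, to 0.11 in CKS1B. The log2 ratio of RNF123 to dKO was 0.16 in tKO 1 and -0.84 in tKO 2. SKP2, which recruits p27 for degradation, was at 0.05, and the median of the 9 genes was 0.01. Of 12 regulators known for the INK4 locus, BMI1, a subunit of Polycomb Repressive Complex 1, was lowest. It had 1376 and 1265 counts in dKO, 661 in tKO 1 and 937 in tKO 2, and a log2 fold change of -0.57 (95% interval -0.99 to -0.15, limma adjusted p = 0.996). BMI1 lies in a reduced window of tKO 1, where its log2 ratio to dKO was -0.83, but it was also at -0.32 in tKO 2. The part of the reduced window in this value was not tested. CBX7 was highest at 0.25, and EZH2 and SUZ12 of Polycomb Repressive Complex 2 were at -0.01 and -0.06.

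**Figure D4:**
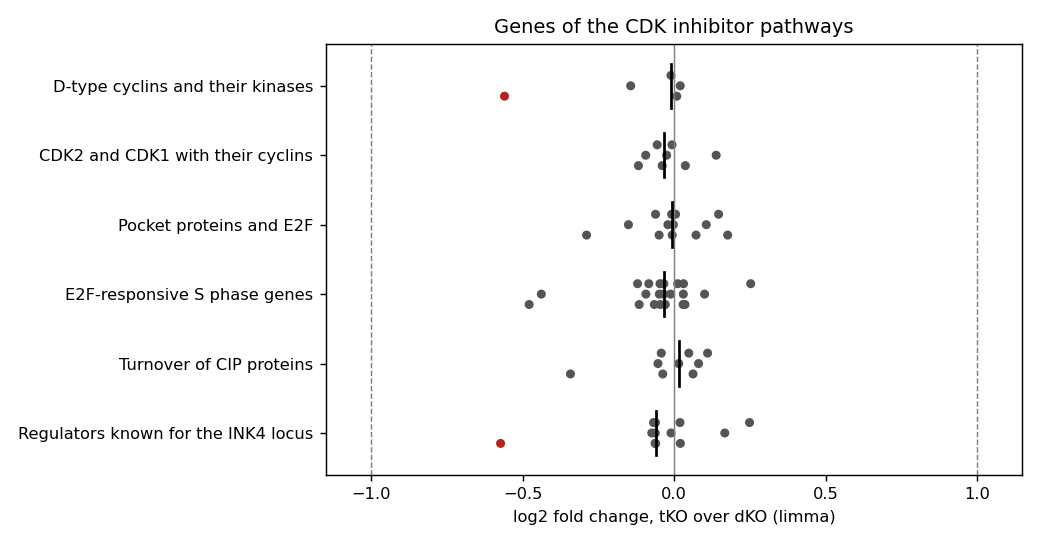
Log2 fold change of tKO over dKO from limma (horizontal axis) for the tested genes of 6 lists (rows); each point is a gene, red points have an unadjusted p below 0.05, black bars are list medians and dashed lines the limits of 1 in size. Medians lie close to 0 in every list, and BMI1 and CCND2 are the points furthest to the left.

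CDKN1A had the widest range of log2-CPM among the 6, 0.50 from lowest to highest library. The 3 genes most like it over the 4 libraries, out of 11472 with a mean above 5 CPM, were the lncRNA ENSG00000246465, the cold-inducible RNA-binding gene CIRBP and the transporter gene MFSD3, with Pearson correlations of 0.9997, 0.9994 and 0.9992. In all 142 of these genes exceeded 0.95. These correlations rest on 4 libraries and are given as a description only. CIRBP was at 181 and 223 CPM in dKO and 203 and 208 CPM in tKO, the same order of libraries as CDKN1A.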

How the data were processed

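RNA-seq of polyadenylated transcripts was read from 4 libraries, placed in groups by their titles. The authors trimmed reads with cutadapt (1.12) through Trim Galore (0.4.4), removed ribosomal reads with bowtie (1.2) and mapped to GRCh37 with STAR (2.5.2b). The deposited values are raw read counts per gene over exons from uniquely mapped reads, with no normalisation. Counts of the strand opposite to the read, as this stranded kit gives, were used, and the other strand column held between 4.01% and 4.24% of the stranded gene counts. Reads that fall on exons of 2 genes of a strand, or on near-identical copies, were not counted by the authors for either.

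Symbols, positions and exon lengths came from GENCODE 44 lifted to GRCh37, matched on gene identifiers without version, with a symbol for 97.5% of tested genes. Exon lengths may differ from those of the release the authors used. A gene was tested if its CPM exceeded 0.5 in 2 or more of the libraries. Counts became log2-CPM with TMM (edgeR 4.0.16) and a prior count of 2, which understates the change of low genes. A linear model with genotype as its term was fitted in limma (3.58.1, with R 4.3.3). Empirical Bayes moderation drew each gene's variance toward a mean-variance trend over all tested genes. The p-values were adjusted by Benjamini-Hochberg over 15136 genes. Poisson intervals and the floor of 3 counts cover counting error only. Alternatives were edgeR quasi-likelihood, DESeq2 (1.42.0), limma-voom, no trend, other normalisation, other filters, unstranded counts, a prior count of 0.25, a replicate block and leaving out each library.

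The 6 genes and the lists were chosen with earlier results of these data known. The genes named were the 6, CDKN1C, CDKN3, genes within 1 Mb of CDKN2A, the extremes of each list, and the 3 genes most like the most variable of the 6; others were named after their values had been seen. A further list of genes is not reported here.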

Additional observations from a re-analysis of the deposited data

How the results depend on the processing

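No alternative made any of the 6 inhibitor genes or any gene of the 6 lists DE. Of 88 values of the 6 genes under the alternatives, 85 kept the sign of the reported log2 fold change and 3 did not, CDKN2A at -0.065 without tKO 2, and CDKN2D at -0.13 and CDKN1A at -0.21 without dKO 1. With 1 library left out, CDKN2A ran from -0.065 to 0.18, CDKN2D from -0.13 to 0.34, CDKN1A from -0.21 to 0.30 and CDKN1B from -0.36 to -0.057. CDKN2C ran from -0.14 to -0.11 and CDKN2B from 0.15 to 0.35 over all alternatives, and CDKN2B and CDKN2D were not tested at CPM above 5. The number of DE genes over the whole table was 2 with limma, 1 with edgeR, without a trend, at CPM above 5 and with unstranded counts, 25 with DESeq2, and 0 with no filter, where 1447 genes had an unadjusted p-value below 0.05. It ran from 0 to 480 when 1 library was left out, being 480 without tKO 1, 175 without tKO 2 and 0 without either dKO library. With the replicate number as a block it was 13, and none of the 6 genes was among them, while 5 of 68 list genes had an unadjusted p-value below 0.05 in place of 2. Deviations of same-numbered libraries from their group means had a correlation of 0.0581, and the labels give the numbers no shared origin, so they were not taken to pair the libraries. The cause of these changes was not tested. Depth limits CDKN2B and CDKN2D, which had between 36 and 87 counts per library.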
